A study of Mus musculus with 4 samples.

Results

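The data describe 10 genes of glycolysis, the conversion of glucose to pyruvate and lactate, in immune cells of the mouse colon. They are the glucose transporter gene Slc2a1 and the enzyme genes Hk2, Pfkl, Pfkp, Aldoa, Tpi1, Pgk1, Eno1, Pkm and Ldha, found by symbol among 31053 gene identifiers. Aldoa has a second identifier with 0 UMIs (unique molecular identifiers, the counted molecules) in every library, so each symbol stands for 1 measured gene. Leukocytes positive for CD45, the pan-leukocyte surface protein encoded by Ptprc, were sorted from whole colon of WT C57BL/6 mice and profiled by droplet single-cell RNA-seq (10x Genomics). The stress group had been restrained every day for 7 days and the other group had a control treatment, with no further detail given here, with 2 libraries in each. The labels give neither age, sex nor the number of animals in a library. P-values for stress against control therefore measure the spread between libraries, which may be technical in part. For comparisons between cell classes, p-values measure how far the class differences vary between libraries.

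Glucose enters a leukocyte through transporters such as the one encoded by Slc2a1, and hexokinase traps it by phosphorylation. Phosphofructokinase then commits the sugar to breakdown, and the later enzymes yield ATP and pyruvate, which lactate dehydrogenase can turn into lactate. Activated and inflammatory leukocytes are known for a high flux through this route, and many of its genes are textbook targets of the hypoxia-inducible factor HIF. Only mRNA was measured here, neither protein nor flux.

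Of 24915 deposited barcodes, 20476 passed the minimum of 500 UMIs and the 10% ceiling on mitochondrial UMIs: 2562 and 5443 from control libraries 1 and 2, and 8333 and 4138 from stress libraries 1 and 2. Their median depth was 2938, 2675, 2174 and 4547 UMIs, so the shallowest and the deepest library both belonged to the stress group. The share of barcodes over the mitochondrial ceiling was 12.9 and 11.1% in controls and 18.8 and 26.0% under stress, so this loss was larger in the stress group. Between 3 and 19 barcodes were shared by any pair of libraries. Cells were placed in classes by counting detected marker genes, none of which is a glycolysis gene, and 13 classes had at least 10 cells in every library. The suffix -like marks that a class rests on transcripts alone. A cell with the markers of more than 1 lineage was left out of the classes (1123 cells), as was a cell with the markers of none (1186 cells). Levels are CPM, the UMIs of a gene relative to all UMIs of a class, scaled by TMM, which takes the bulk of genes as unchanged. Counts were summed within a class, and such sums do not tell fewer transcripts per cell from fewer transcribing cells. The sums behind a value ranged from 54818 UMIs (ILC2-like cells, stress 1) to 14586723 UMIs (plasma cell-like cells, stress 2), and values are listed in the order control 1, control 2, stress 1, stress 2.

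The stretch just upstream of the transcription start is where HIF and related factors can bind, at sites built on the core ACGTG. That core, read on either strand, was present in 16.6% of the 32851 mouse RefSeq windows of 250 bases before an annotated start (GRCm38.p6), and in 7 of the 16 windows of these genes. The windows with a match belonged to 6 genes, Aldoa, Hk2, Ldha, Pgk1, Pkm and Slc2a1. Overlapping windows of Aldoa hold the same match, so that site was counted more than once. The palindrome CACGTG, which holds the core on each strand, was found in 6.02% of all windows and among these genes in a window of Ldha alone. A match is a description of letters and not a bound site. The 3 windows with 2 or more matches are shown 5′ to 3′ on the strand of the gene, as the member windows with the most matches. Capitals mark ACGTG or its reverse complement CACGT, and none of these bases lie in an annotated exon. They lie at chr6:82774455-82774704 (minus strand) for Hk2, chr7:46845554-46845803 (plus strand) for Ldha and chrX:106186850-106187099 (plus strand) for Pgk1.
Hk2: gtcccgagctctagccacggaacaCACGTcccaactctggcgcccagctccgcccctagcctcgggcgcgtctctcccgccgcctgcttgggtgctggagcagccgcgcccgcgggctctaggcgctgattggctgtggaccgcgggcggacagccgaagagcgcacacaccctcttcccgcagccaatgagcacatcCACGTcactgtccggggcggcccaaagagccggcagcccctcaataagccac
Ldha: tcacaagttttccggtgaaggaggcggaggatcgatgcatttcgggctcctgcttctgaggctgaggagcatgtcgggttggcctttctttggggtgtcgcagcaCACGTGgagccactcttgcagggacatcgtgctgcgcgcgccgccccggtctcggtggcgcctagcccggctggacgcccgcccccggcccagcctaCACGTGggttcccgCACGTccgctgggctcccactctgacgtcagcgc
Pgk1: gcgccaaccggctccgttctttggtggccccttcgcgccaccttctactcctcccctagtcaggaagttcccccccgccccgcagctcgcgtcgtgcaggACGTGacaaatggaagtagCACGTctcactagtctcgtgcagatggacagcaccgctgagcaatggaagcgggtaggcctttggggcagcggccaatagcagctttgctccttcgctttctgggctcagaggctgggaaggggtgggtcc

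Summed over the 10 genes, the median level was highest in monocyte-like cells and lowest in resting B cell-like cells. Monocyte-like cells had 2249.9, 1973, 2630.0 and 2867 CPM, and resting B cell-like cells had 1004, 813, 935 and 977 CPM. The ranges of these 2 classes did not overlap. Activated B cell-like cells, at 987, 823, 955 and 1039 CPM, overlapped the resting ones. With plain totals in place of TMM, plasma cell-like cells were lowest, at 418, 446, 526 and 500.1 CPM. ILC2-like, cDC1-like, macrophage-like and cDC2-like cells followed the monocytes with medians of 1914, 1877, 1778 and 1749 CPM and overlapping ranges. Dividing B cell-like cells varied little between libraries, at 1705, 1750.4, 1728 and 1735 CPM. The sum hides different orders of classes for the single genes, and neighbours in these orders mostly overlapped: between 10 and 12 of the 12 neighbouring pairs of classes overlapped for every gene.

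**Figure D1:**
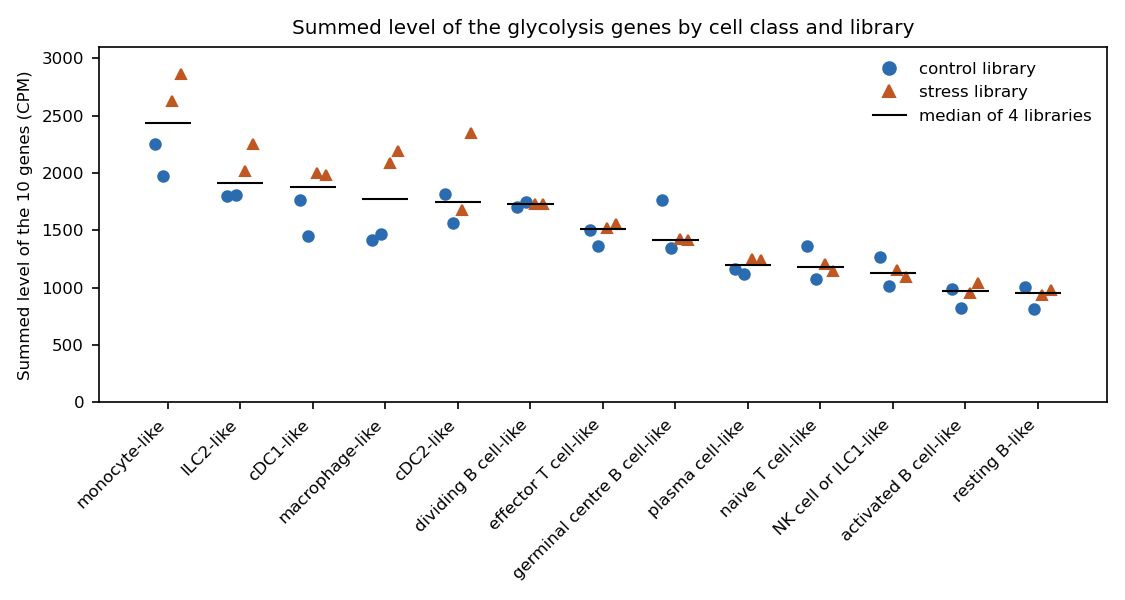
Summed level of the 10 glycolysis genes (vertical axis, CPM) in each of 13 cell classes (horizontal axis, ordered by median), with a point per library (circles control, triangles stress) and a line at the median of 4 libraries. Monocyte-like cells lie highest (median 2439.9 CPM) and resting B cell-like cells lowest (median 956 CPM), and both stress libraries lie above both controls in monocyte-like, macrophage-like, ILC2-like, cDC1-like, effector T cell-like and plasma cell-like cells.

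Slc2a1, the transporter, was highest in monocyte-like cells at 93.6, 79.5, 129 and 105 CPM, followed by macrophage-like cells at 60.2, 69.5, 106 and 80.5 CPM. These 2 ranges overlapped. cDC1-like cells were at the low end with 6.15, 4.19, 15.1 and 3.64 CPM, which rest on 2, 1, 3 and 1 UMIs. In ILC2-like cells the gene had 0 UMIs in stress 2, where the limit of a count of 0 (3 UMIs) is 44.7 CPM, and 28.3, 70.1 and 33.3 CPM in the other libraries, so its place there is not resolved at this depth. Counting error alone is covered by that limit.

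Hk2, the inducible hexokinase, had its lowest median in resting B cell-like cells. It stood at 2.48, 2.67, 3.43 and 4.19 CPM in resting B cell-like cells (4, 16, 20 and 20 UMIs). Monocyte-like cells had 46.8, 34.1, 81.5 and 103 CPM, macrophage-like cells 74.1, 34.8, 67.1 and 95.3 CPM, and cDC2-like cells 115, 77.0, 32.2 and 66.5 CPM. These 3 myeloid classes overlapped each other and lay above every library of the B cell and plasma cell classes. Among lymphoid classes, NK cell or ILC1-like cells (71.2, 32.0, 37.8 and 23.5 CPM) and effector T cell-like cells (35.5, 24.4, 21.3 and 26.2 CPM) were above naive T cell-like cells, which had between 1 and 16 UMIs in a library.

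The 2 phosphofructokinase genes were distributed differently. Pfkl, the liver-type subunit, varied little, with class medians from 24.0 CPM in germinal centre B cell-like cells to 55.4 CPM in monocyte-like cells and overlap between all neighbours. Pfkp, the platelet-type subunit, was highest in cDC1-like cells at 178, 252, 343 and 302 CPM. cDC2-like cells came next at 147, 174, 174 and 218 CPM, above every library of the classes that followed. Resting B cell-like cells were lowest, at 32.9, 39.9, 43.5 and 36.9 CPM.

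Aldoa, the aldolase that splits the hexose bisphosphate, was highest in ILC2-like cells with 519.7, 433, 517 and 447 CPM, and all 4 libraries lay above those of the next class, monocyte-like cells, which had 284, 261, 356 and 410.2 CPM. The highest germinal centre library, at 444 CPM, reached into that range. Tpi1, which interconverts the triose phosphates, was highest in dividing B cell-like cells with 195, 202, 252 and 238 CPM. Monocyte-like cells (180.0, 129, 200.01 and 247 CPM) and germinal centre B cell-like cells (201, 184, 186 and 188 CPM) overlapped them, whereas resting B cell-like cells had 47.2, 35.4, 55.7 and 60.1 CPM. Pgk1, the first ATP-yielding enzyme of the route, was highest in monocyte-like cells (263, 219.7, 286 and 307 CPM) and dividing B cell-like cells (245, 301, 234 and 232 CPM), which overlapped.

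Eno1, the enolase, had its highest median in monocyte-like cells (133, 178, 169 and 267 CPM) and its lowest in plasma cell-like cells (48.9, 28.5, 48.3 and 65.9 CPM). Reads of its near copy Eno1b could be exchanged with it, but Eno1b had at most 4.72 CPM in any library of any class. Pkm, pyruvate kinase, stood out in monocyte-like cells at 698, 648, 786 and 769.6 CPM. Every one of these libraries lay above all others, and macrophage-like cells came next with 315, 301, 472 and 507 CPM. Ldha, lactate dehydrogenase A, was highest in ILC2-like cells (581, 625, 867 and 760.2 CPM), above every library of cDC1-like cells (547, 403, 499 and 499 CPM). Plasma cell-like cells had the lowest median, with 176, 127, 189 and 169 CPM.

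**Figure D2:**
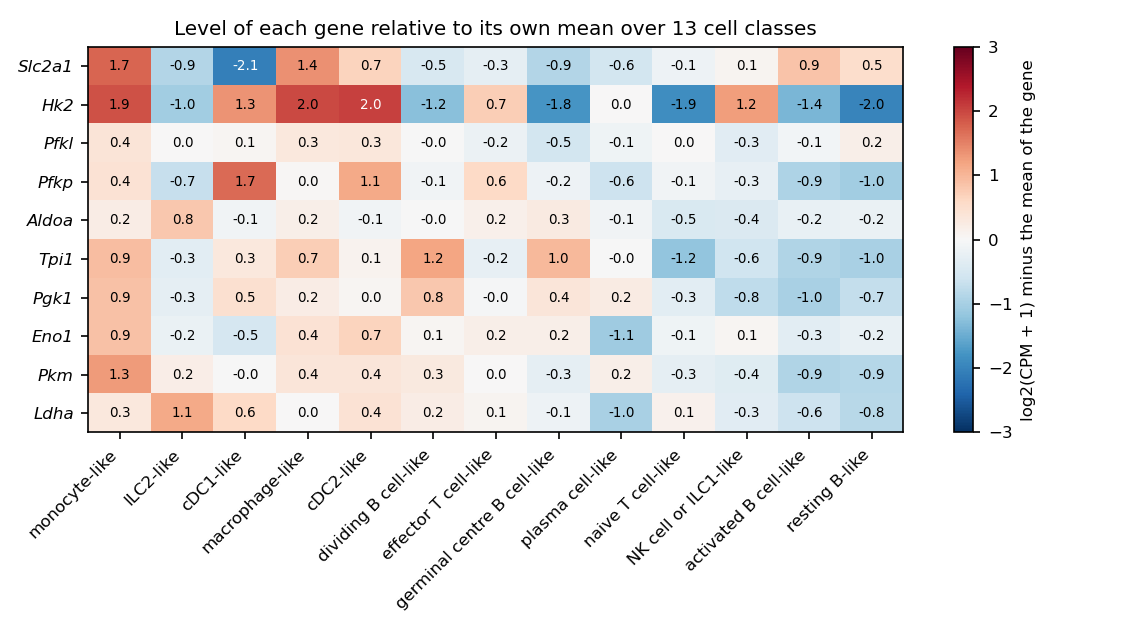
Heat map of the 10 genes (rows) in 13 cell classes (columns, ordered as by summed level); colour and number give log2(CPM + 1), averaged over 4 libraries, minus the mean of that gene over the classes. Hk2 spans the widest range, from resting B cell-like to cDC2-like cells, Pfkp peaks in cDC1-like cells and Aldoa and Ldha peak in ILC2-like cells.

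Across the 13 classes, Tpi1 and Pgk1 varied together most closely (Pearson r = 0.89 of log2(CPM + 1)), and Pgk1 with Pkm came next (r = 0.81). For Slc2a1 the coefficient was -0.02 with Tpi1, -0.13 with Pgk1 and 0.60 with Eno1. These coefficients describe 13 points that share libraries, depth and cell-calling. The genes whose class pattern was most like that of the 10 genes summed were Chp1 (r = 0.90), Mrpl33 (r = 0.89), Ywhab (r = 0.89), Prdx2 (r = 0.88) and Smdt1 (r = 0.87), out of 5168 genes compared over the same 13 classes. Prdx2, a peroxiredoxin, and Mrpl33, a mitochondrial ribosomal protein, ranged from 101 to 310.1 CPM and from 60.8 to 229 CPM between their lowest and highest class.

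Classes of the same 4 libraries were compared with edgeR's quasi-likelihood test, with library as a block and Benjamini-Hochberg adjustment over all genes tested. In monocyte-like against resting B cell-like cells all 10 genes were higher, where 32.7% of 8257 genes were called higher and 33.2% lower. Hk2 was higher by 4.33 on the log2 scale (SE 0.22, adjusted p = 1.09e-16), Pkm by 2.04 (SE 0.11, adjusted p = 6.79e-16) and Tpi1 by 1.84 (SE 0.14, adjusted p = 6.38e-13). Pgk1, Pfkp, Slc2a1, Ldha and Eno1 were higher by 1.51, 1.51, 1.26, 1.08 and 1.07. The smallest differences were those of Pfkl (0.50, adjusted p = 0.0237) and Aldoa (0.37, adjusted p = 0.0132). The median difference of the 10 genes was 1.39, and that of all genes tested was -0.06. DESeq2 called 8 of the 10, all but Pfkl and Aldoa, and the calls of these 2 genes were also lost without stress 1 or stress 2.

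Against macrophage-like cells, their closest relatives here, monocyte-like cells had more Pkm (0.80, SE 0.12, adjusted p = 6.27e-06) and Pgk1 (0.60, SE 0.14, adjusted p = 0.00303). These are 2 of 10 genes, where 16.4% of 6455 genes were called, 8.16% higher and 8.2% lower. Pfkp was 0.44 higher (SE 0.16, adjusted p = 0.0596) and did not pass. The differences of Hk2 and Aldoa were -0.02 (SE 0.18) and -0.01 (SE 0.13). With classes taken from clusters in place of marker gates, Pkm (0.13) and Pgk1 (0.16) no longer passed and Aldoa was lower (-1.19, adjusted p = 0.000381). The clusters divided these cells otherwise, with 90, 20, 34 and 70 macrophage-like cells against 218, 32, 179 and 156 by markers.

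The other B cell states were each compared with resting B cell-like cells and were not tested against each other. Activated B cell-like cells, marked by immediate early genes, differed from resting ones in Ldha alone (0.22 higher, SE 0.07, adjusted p = 0.039), 1 of 9 genes tested where 7.95% of 7625 genes were called, 5.63% higher and 2.32% lower. That call was lost under DESeq2 and when any of the 4 libraries was left out, and with at most 5% mitochondrial UMIs the difference was -0.04. Dividing B cell-like cells had more Tpi1 (2.12, SE 0.11, adjusted p = 2.18e-13), Pgk1 (1.44), Pkm (1.11), Ldha (1.03) and Pfkp (0.88), and less Slc2a1 (-1.12, SE 0.18, adjusted p = 1.48e-05). This is 6 of 9 genes tested, where 61% of 8093 genes were called, 29.4% higher and 31.6% lower. Aldoa (0.13, SE 0.09), Eno1 (0.21, SE 0.11) and Pfkl (-0.29, SE 0.17) did not pass.

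Germinal centre B cell-like cells showed 7 of 9 genes higher and 2 lower than resting ones, where 47.8% of 7542 genes were called, 23.1% higher and 24.7% lower. Tpi1 led again (1.90, SE 0.13, adjusted p = 5.77e-13), followed by Pgk1 (1.09), Pfkp (0.89), Ldha (0.71), Pkm (0.61), Aldoa (0.47) and Eno1 (0.37). Slc2a1 (-1.26, SE 0.21, adjusted p = 1.26e-05) and Pfkl (-0.47, SE 0.19, adjusted p = 0.0433) were the lower ones. DESeq2 called 7 of the 9, all but Eno1 and Pfkl, which were also lost without control 1 or stress 1. Slc2a1 stood at 14.0, 14.2, 21.6 and 13.1 CPM there against 49.7, 42.9, 43.7 and 35.6 CPM in resting B cell-like cells, and the 2 classes did not overlap. The germinal centre control values of Slc2a1 rest on few UMIs, since 3 UMIs in control 2 of that class are 10.6 CPM. Markers of division were also present in the germinal centre class, at 213 to 238 CPM summed against 12.4 to 30.8 CPM in resting B cell-like cells. The dividing class in turn held germinal centre markers, at 937, 1061, 1099 and 1108 CPM summed. The germinal centre class itself had 1229, 989, 1158 and 1133 CPM of them, and resting B cell-like cells 5.34 to 20.2 CPM. A B cell that met both gates was placed in the dividing class. The part of these markers in the differences was not tested. Hk2 was too low to enter these fits in dividing, germinal centre and activated B cell-like cells.

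Plasma cell-like cells, which secrete antibody, had more Hk2 (2.19, SE 0.22, adjusted p = 3.35e-07), Pkm (1.03), Tpi1 (0.95), Pgk1 (0.92) and Pfkp (0.44) than resting B cell-like cells, and less Slc2a1 (-1.10), Eno1 (-0.79) and Pfkl (-0.30). This is 8 of 10 genes, where 66.7% of 9412 genes were called, 33.5% higher and 33.2% lower. The call of Pfkl was lost under DESeq2 and without any 1 of the libraries, and that of Tpi1 with at most 5% mitochondrial UMIs (0.39, adjusted p = 0.0682). Here the direction depends on the scaling. On the TMM scale the 7 plasma markers, Jchain among them, summed to 178551 to 217113 CPM. These values are not shares of all UMIs, since TMM gave the totals of this class a factor of 0.394. With plain totals in place of TMM all genes shift by -1.42 in this comparison. On that scale 1 of the 10 genes (Hk2) in place of 6 had a positive difference. On the scale of plain totals, plasma cell-like cells had a summed level of 418, 446, 526 and 500.1 CPM against 1033, 867, 1000.4 and 1026 CPM in resting B cell-like cells. For the other pairs the shift lay between -0.15 and 0.30, and no called gene of these pairs changed direction.

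Effector T cell-like cells had more Hk2 (2.66, SE 0.35, adjusted p = 5.42e-07), Tpi1 (1.07, SE 0.19, adjusted p = 4.85e-05), Pfkp (0.66, SE 0.13, adjusted p = 0.000304) and Aldoa (0.61, SE 0.11, adjusted p = 5.11e-05) than naive T cell-like cells. These are 4 of 10 genes, where 28.9% of 7315 genes were called, 15.9% higher and 13% lower. Ldha was at 341, 317, 344 and 349.8 CPM in effector and at 445, 321, 351 and 306 CPM in naive T cell-like cells, a difference of -0.06 (SE 0.10, adjusted p = 0.74). Slc2a1 differed by 0.02 (SE 0.24, adjusted p = 0.964). The call of Tpi1 was lost with at most 5% mitochondrial UMIs (adjusted p = 0.115).

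**Figure D3:**
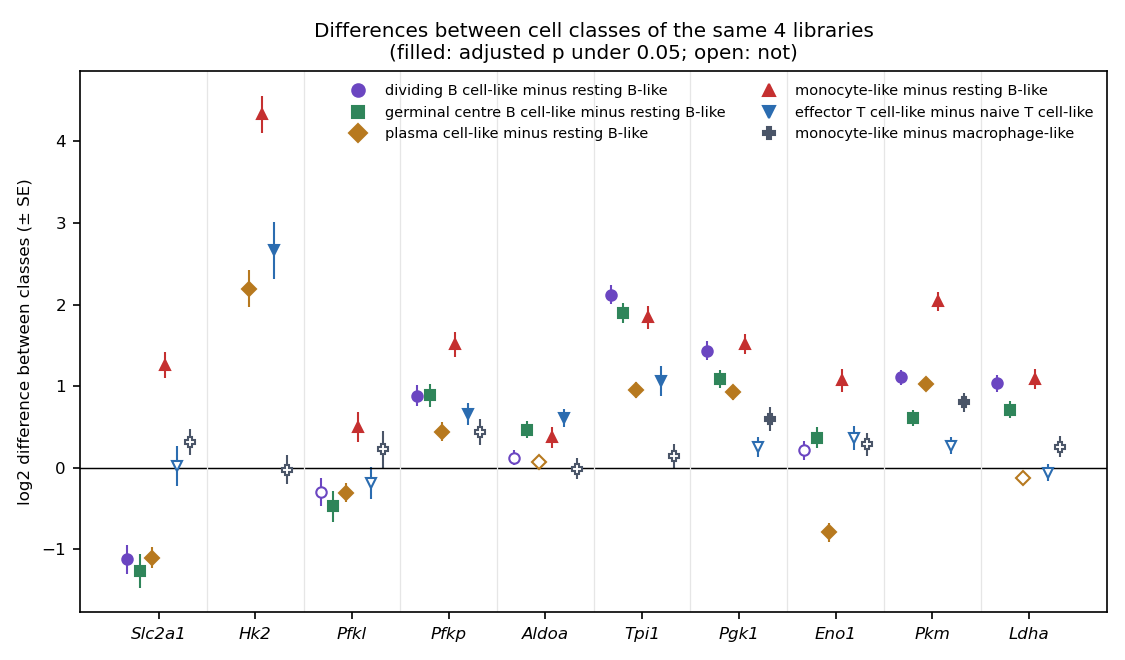
Difference of each gene (horizontal axis) between 2 classes of the same 4 libraries (vertical axis, log2, bars are the standard error of the fit), with filled symbols for an adjusted p under 0.05. All 10 genes are filled and above 0 for monocyte-like against resting B cell-like cells, and Slc2a1 lies below 0 in dividing and germinal centre B cell-like and plasma cell-like cells.

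The central comparison of the study is stress against control. It was fitted for all kept cells and for the 9 classes with at least 30 cells in every library. None of the 10 genes passed edgeR's test in any of these 10 fits, and DESeq2 called none either, although it assigned no adjusted p to the 9 genes tested in activated B cell-like cells and to 2 in naive T cell-like cells. Over all genes tested, the share called was 0% in all kept cells, 0.136% in resting B, 0.266% in activated B and 0% in germinal centre B cell-like cells. It was 0.661% in plasma cell-like, 0.633% in naive T, 0.33% in effector T, 0% in monocyte-like, 1.21% in macrophage-like and 2.21% in cDC2-like cells. At an unadjusted p under 0.05, 5 of the 10 genes passed in monocyte-like cells and 5 in macrophage-like cells, with 7.97% and 11.8% of all genes tested. The other fits had between 0 and 2 such genes.

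In monocyte-like cells all 10 genes had a positive difference, with a median of 0.49 on the log2 scale against -0.01 over all 6320 genes tested. Hk2 stood at 46.8 and 34.1 CPM in the controls and at 81.5 and 103 CPM under stress, a difference of 1.19 (SE 0.31, adjusted p = 0.309). Pfkl stood at 18.0 and 45.5 CPM against 65.3 and 69.6 CPM (1.10, SE 0.37, adjusted p = 0.492). The control values of Pfkl rest on 5 and 12 UMIs. Pfkp was at 82.8 and 87.1 CPM against 141 and 132 CPM, a difference of 0.68 (SE 0.22, adjusted p = 0.491). Tpi1, Eno1, Aldoa, Slc2a1 and Pgk1 differed by 0.53, 0.49, 0.49, 0.43 and 0.30, and Ldha and Pkm by 0.24 and 0.21. Both stress libraries lay above both controls for 8 of the 10 genes, all but Eno1 and Ldha, where 19.4% of all genes tested did so, and none lay below both controls, where 21.1% did. Without control 1, Hk2 passed (1.46, adjusted p = 0.0328), and without control 2, Pfkl passed (1.89, adjusted p = 0.0288).

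The monocyte-like class held 55 and 49 control cells and 324 and 175 stress cells. Its own 7 markers summed to 4143 and 3538 CPM in controls and 3978 and 3617 CPM under stress, so the groups overlapped. The 6 markers of division summed to 0 and 7.58 CPM in controls and 41.1 and 47.4 CPM under stress, with 4 of 6 above both controls. The 7 macrophage markers summed to 428 and 337 CPM against 492 and 507 CPM, with 2 of 7 above and 3 below. The 7 T cell markers summed to at most 18.9 CPM in any library, with Cd3e at 0. The median depth of these cells was 5597 and 6230 UMIs in controls and 4199 and 8699 UMIs under stress. The part of these markers in the differences was not tested.

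Macrophage-like cells also had a positive difference for all 10 genes, with a median of 0.57 against 0.00 over all 6674 genes tested. Eno1 stood at 93.8 and 98.5 CPM in the controls and at 152 and 219 CPM under stress, a difference of 0.97 (SE 0.25, adjusted p = 0.101). Pkm stood at 315 and 301 CPM against 472 and 507 CPM (0.66, SE 0.20, adjusted p = 0.186). Tpi1 was at 117 and 145 CPM against 223 and 182 CPM, which is a difference of 0.68 (SE 0.23, adjusted p = 0.22). Pgk1, Aldoa, Slc2a1, Pfkp, Ldha, Hk2 and Pfkl differed by 0.66, 0.58, 0.56, 0.51, 0.36, 0.34 and 0.16. Both stress libraries were above both controls for 7 of the 10 genes, all but Hk2, Pfkl and Pfkp, where 21.6% of all genes tested did so, and none lay below, where 20% did. Without control 1 the difference of Pfkp was -0.02. Without control 2, which held 32 macrophage-like cells against 218 in control 1, Eno1 passed (1.01, adjusted p = 0.048).

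The macrophage markers themselves differed between the groups of this class. The 7 of them summed to 18310.5 and 12084 CPM in controls and to 9035 and 9369 CPM under stress, with 6 of 7 below both controls. Of the 7 monocyte markers, 4 were above both controls and 1 below, and their sum was 686 and 1477 CPM against 1311 and 1302 CPM. The 7 cDC2 markers summed to 884 and 898 CPM in controls and 570.2 and 591 CPM under stress, with 4 of 7 below, and of the 7 general myeloid markers 4 were below. The 6 markers of division summed to 48.7 and 23.2 CPM against 83.9 and 108 CPM, with 2 of 6 above and 1 below. The 7 plasma cell markers summed to 294 and 162 CPM against 415 and 573 CPM, with 4 of 7 above and 1 below. The part of these markers in the differences was not tested. The monocyte-like and macrophage-like fits share the same 4 libraries, so they are not independent of each other.

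**Figure D4:**
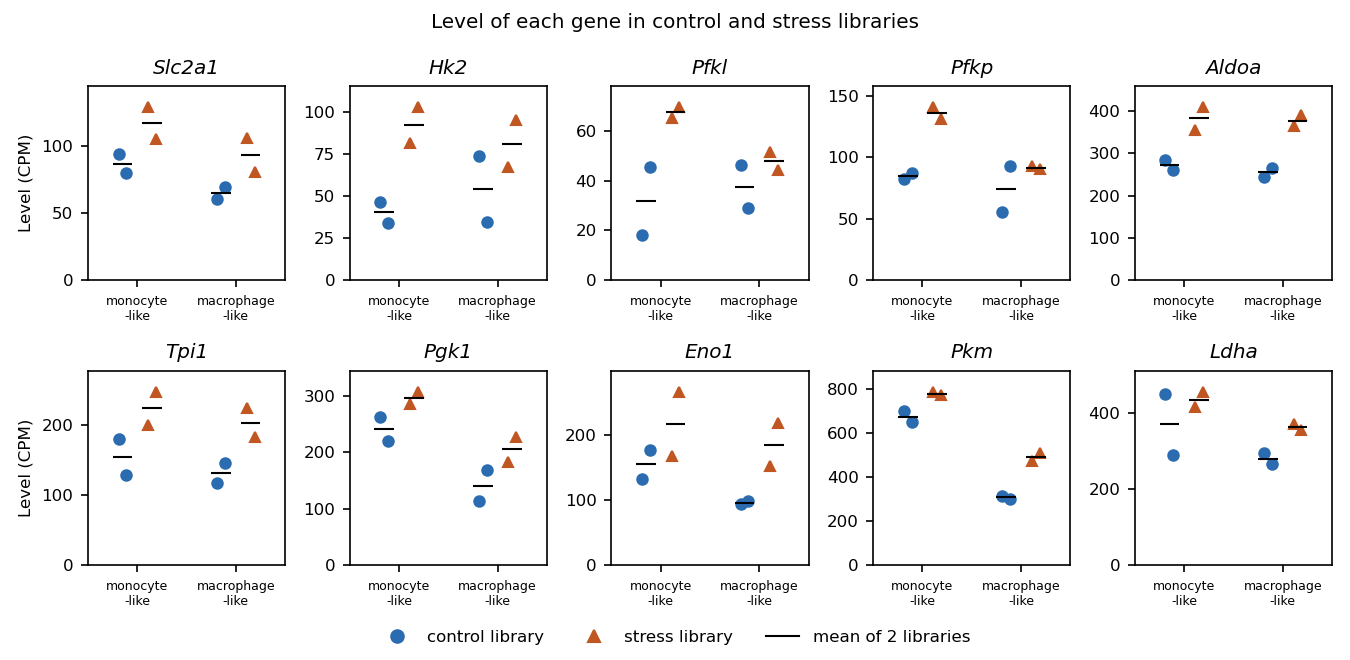
Level of each gene (vertical axes, CPM, starting at 0) in monocyte-like and macrophage-like cells, with a point per library (circles control, triangles stress) and a line at the mean of 2 libraries. The triangles lie above both circles for 8 of 10 genes in monocyte-like and 7 of 10 in macrophage-like cells, and no gene passed the adjusted test.

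The stress difference was compared directly between classes by an interaction term. Between monocyte-like and macrophage-like cells none of the 10 genes passed edgeR's test (0.607% of all genes tested did), 2 had an unadjusted p under 0.05, as did 8.35% of all genes tested, and DESeq2 called none. Between monocyte-like and resting B cell-like cells none passed either (0.0555% of all genes tested), 3 had an unadjusted p under 0.05, as did 6.72% of all genes tested, and DESeq2 called none and gave no adjusted p to 1 of the 10. The largest differences of the first kind were those of Pfkl (1.02, SE 0.51, adjusted p = 0.594) and Hk2 (0.68, SE 0.42, adjusted p = 0.724). With classes from clusters these were -0.45 and -0.77, and without control 1 that of Pfkl was -0.13.

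In cDC2-like cells 9 of 10 genes had a positive difference, with a median of 0.31. Hk2 went the other way, at 115 and 77.0 CPM in controls and 32.2 and 66.5 CPM under stress (-1.02, SE 0.37, adjusted p = 0.198), and was the only one of the 10 with both stress libraries below both controls, where 21.2% of all genes tested were below. Hk2 passed without control 2 (-1.28) or stress 2 (-1.62), and Tpi1 passed without stress 1 (adjusted p = 0.0344) but was at -0.14 without stress 2. Ldha, Pfkl and Slc2a1 were above, where 20.2% of all genes tested were. The 7 B cell markers summed to 11.3 and 24.3 CPM in the cDC2-like controls and to 204 and 285 CPM under stress, with 1 of 7 above both controls, and the 6 plasmacytoid DC markers to 222 and 299.9 CPM against 717 and 798 CPM, with all 6 above. Their part in the differences was not tested.

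Among lymphoid cells, Pgk1 in activated B cell-like cells was at 41.2 and 65.7 CPM in controls and at 101 and 101 CPM under stress (0.78, SE 0.21, adjusted p = 0.167). Tpi1 had both stress libraries above both controls in resting B (0.53, SE 0.19, adjusted p = 0.384), activated B (0.58, SE 0.23, adjusted p = 0.387) and plasma cell-like cells (0.33, SE 0.15, adjusted p = 0.466). The 6 markers of division summed to 15.5 and 12.4 CPM in controls and 30.8 and 19.1 CPM under stress in resting B cell-like cells, and to 0 and 13.01 CPM against 19.99 and 26.3 CPM in activated ones, with 5 of 6 above both controls in each. Their part in the differences was not tested. Of the genes tested, 4 of 10 in resting B, 3 of 9 in activated B, 2 of 8 in germinal centre B and 2 of 10 in plasma cell-like cells were above in this way. The shares of all genes were 19.6, 19.9, 17.9 and 21.3%. In naive T cell-like cells it was 1 of 9 genes and in effector T cell-like cells 3 of 10, with 17.7 and 19.9% of all genes. Over all kept cells it was 3 of 10 (Tpi1, Pgk1 and Pkm), with 19.8% of all genes. Their differences were 0.45, 0.37 and 0.36, and without control 1 they were 0.94, 0.48 and 0.49. Aldoa lay below both controls in germinal centre B cell-like and plasma cell-like cells, at -0.45 (SE 0.19, adjusted p = 0.997) and -0.05 (SE 0.11, adjusted p = 0.927), where 16.6 and 20.7% of all genes did. None of the 10 lay below in all kept cells, resting B, activated B, naive T or effector T cell-like cells, where 17.2, 18.1, 19.3, 20.1 and 20.2% of all genes did.

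**Figure D5:**
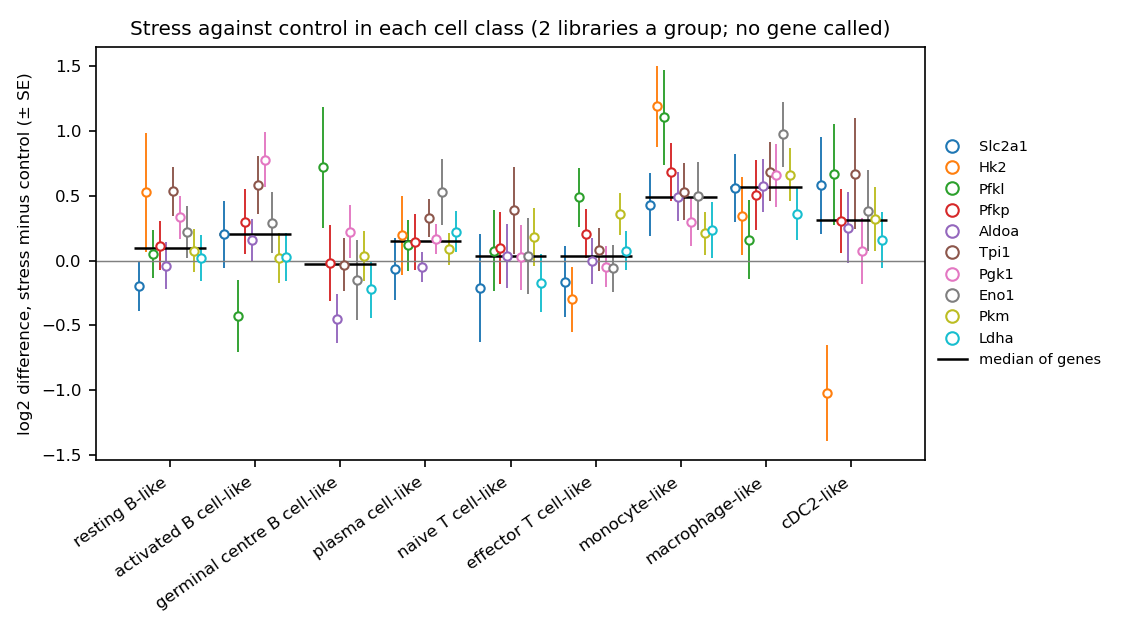
Difference between stress and control (vertical axis, log2, bars are the standard error of the fit) of each gene in the 9 classes fitted, with a line at the median of the genes in a class. The medians are 0.49 in monocyte-like and 0.57 in macrophage-like cells and between -0.03 and 0.31 elsewhere.

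Other genes of the route were counted in the same fits, from a list of 30 further genes of glycolysis and its transporters. In monocyte-like against resting B cell-like cells 9 of 14 tested were higher and 2 lower, with 32.7% and 33.2% of all genes. The lactate exporter gene Slc16a3 had 202, 167, 193 and 201 CPM in monocyte-like cells and 0, 0, 1 and 4 UMIs in resting B cell-like cells (adjusted p = 1.51e-21). Ldhb, the other lactate dehydrogenase subunit, was also higher and had 0, 2, 2 and 1 UMIs in resting B cell-like cells, so no fold is given for either gene. The regulator gene Pfkfb3 was higher by 2.27 and Slc2a6 by 3.43. The transporter gene Slc2a3 was lower by a log2 difference of -2.32 and Pdk1, whose kinase restrains pyruvate dehydrogenase, by -1.22. In dividing B cell-like cells, where 29.4% of all genes were higher and 31.6% lower, 4 of 11 were higher, among them Gapdh (1.62), Pgam1 (1.46) and Bpgm (1.86), and 4 lower, among them Slc2a3 (-2.37) and Pfkfb4 (-2.94). Germinal centre B cell-like cells had 4 of 11 higher, Gapdh by 1.39, and 3 lower, with 23.1% and 24.7% of all genes. Plasma cell-like cells had 7 of 15 higher, Bpgm by 2.69, and 6 lower, the isomerase gene Gpi1 by -0.98, with 33.5% and 33.2% of all genes. Plain totals shift all genes of this comparison by -1.42. The direction of a smaller positive difference, such as that of Gapdh (0.82), therefore depends on the scaling. Effector T cell-like cells had 3 of 11 higher, Gapdh by 0.65, and 2 lower, Pdk1 by -2.505, with 15.9% and 13% of all genes. In monocyte-like against macrophage-like cells 4 of 10 were higher, Slc16a3 by 1.67, and none lower, with 8.16% and 8.2% of all genes. In activated B cell-like cells 0 of 11 passed, with 7.95% of all genes.

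Under stress, 1 gene of this list passed in any fit. Slc16a3 in macrophage-like cells rose from 23.2 and 17.4 CPM to 82.6 and 79.5 CPM (1.87, SE 0.31, adjusted p = 0.00933), where the control 2 value rests on 3 UMIs. That call was lost under DESeq2 (adjusted p = 0.145), with a replicate block (adjusted p = 0.143) and without control 1, stress 1 or stress 2 (adjusted p from 0.118 to 0.267). In monocyte-like cells Slc16a3 was at 202 and 167 CPM against 193 and 201 CPM (0.10, SE 0.19, adjusted p = 0.952), so macrophage-like cells remained below monocyte-like cells in every library. That small difference depends on how the cells were classed. With classes from clusters the difference in the class named monocyte-like was 1.03 (SE 0.16, adjusted p = 0.0763, edgeR) and did not pass. That class is mixed, since 56.8% of its cells with a marker class were monocyte-like by markers. Gapdh in macrophage-like cells stood at 769 and 834 CPM against 1116 and 1391 CPM and did not pass (0.65, SE 0.20, adjusted p = 0.186). The monocyte-like median over the 11 genes tested was 0.11 and the macrophage-like median over 13 was 0.25.

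A list of 20 genes known as targets or regulators of HIF was followed as well. Hif1a itself was higher in monocyte-like than in resting B cell-like cells (1.71, adjusted p = 7.86e-09), higher in effector than in naive T cell-like cells (1.14, adjusted p = 1.32e-08) and lower in plasma cell-like than in resting B cell-like cells (-1.24, adjusted p = 8.27e-08). Of 14 list genes tested in monocyte-like against resting B cell-like cells 9 were higher, among them Ndrg1 (5.26) and Vegfa (4.47), and none lower, with 32.7% and 33.2% of all genes. In dividing and germinal centre B cell-like cells 1 and 3 of 12 were higher and 6 lower in each, where 29.4% and 23.1% of all genes were higher and 31.6% and 24.7% lower. Ddit4, an inhibitor of mTOR signalling, was among the lower ones (-1.69 and -0.66). Under stress, Ddit4 in naive T cell-like cells passed, at 46.6 and 17.8 CPM in controls and 64.2 and 84.5 CPM under stress (1.75, SE 0.32, adjusted p = 0.00387). This was 1 of 10 list genes tested, where 0.633% of all genes were called. The class held 81 and 993 control cells and 435 and 92 stress cells. Its 12 effector T cell markers summed to 2244 and 585 CPM in controls and 1019 and 1428 CPM under stress, with 3 above both controls and 0 below. Their part in the difference was not tested. In macrophage-like cells Ddit4 (1.37, adjusted p = 0.155), Hif1a (0.87, adjusted p = 0.146) and Higd1a (0.66, adjusted p = 0.284) had both stress libraries above both controls and did not pass. They were among 5 of 14 list genes above, where 21.6% of all genes tested were, and none lay below, where 20% did. In monocyte-like cells 6 of 14 were above and none below, with 19.4% and 21.1% of all genes. The median of the list was 0.32 in monocyte-like and 0.46 in macrophage-like cells, each over 14 genes.

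The genes lie on chromosomes 4 (Slc2a1, Eno1), 6 (Hk2, Tpi1), 7 (Aldoa, Ldha), 9 (Pkm), 10 (Pfkl), 13 (Pfkp) and X (Pgk1), and all are protein coding in GENCODE vM21. Antisense or opposite-strand genes overlap Slc2a1 (Gm12867, Gm12868), Hk2 (Gm17034), Pfkp (Pitrm1), Aldoa (Fam57b) and Tpi1 (Spsb2). No source used here states whether counting used the strand, so reads in these overlaps could not be assigned with certainty.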

How the data were processed

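The authors deposited 1 matrix of UMI counts per library, raw counts of each gene in each barcode, made with Cell Ranger 5.0 on build mm10 per the submitters' processing notes, while the file headers give software version 3.1.0, a conflict not settled here. No source used here states the use of strand. Barcodes under 500 UMIs or over 10% mitochondrial UMIs were left out. The 10 genes and the gene lists were chosen with earlier results of these data known. Cells were classed by detected markers. The minima were set after marker and cell counts were seen and before any of the 10 genes was tested: at least 4 of 7 for myeloid cells, since with 5 control 2 had 29 macrophage-like cells, under the 30 asked for. Counts were summed per class and library and tested with edgeR 4.0.16 (quasi-likelihood, robust, filterByExpr, TMM) in R 4.3.3, with Benjamini-Hochberg adjustment over all genes and a threshold of 0.05. Pairs of classes had library as a block. Levels used TMM within and then between classes, a scaling changed after values had been seen. Genes were named by a rule that covers all 10, list genes that passed, the 3 most changed of each list at 20 CPM or more, and the 5 most alike in class pattern. Alternatives were DESeq2 1.42.0, no filter, at most 5% mitochondrial UMIs, removal of the highest Scrublet scores, Leiden clusters (scanpy 1.11.5), blocks and leaving out each library; doublets were otherwise left in. A stricter myeloid gate and other scalings were chosen after seeing the data. Tests were checked on simulated data. Limits for a count of 0 use 3 UMIs and cover counting error only. Replicates differed beyond sampling noise.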

Additional observations from a re-analysis of the deposited data

Results flagged for a closer look

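Slc16a3, the lactate exporter gene and not one of the 10, drew attention because its stress difference was not alike in 2 classes. The difference in monocyte-like cells minus that in macrophage-like cells was -1.85 on the log2 scale (SE 0.38, adjusted p = 0.00277, edgeR). It was -1.86 with an adjusted p of 0.9997 under DESeq2, and 0.15 (SE 1.44) for classes taken from clusters, which did not pass. Without control 1, stress 1 or stress 2 it was -1.96, -1.81 and -1.89, with adjusted p of 0.337, 0.0871 and 0.0849. Over these and the other alternatives it ranged from -2.10 to 0.15. The stress difference in monocyte-like cells alone was 0.10 with marker gates and 1.03 with clusters. In that cluster 56.8% of the cells with a marker class were monocyte-like by markers. The cause was not tested.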

How the results depend on the processing

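Over 1810 values of the 10 genes under the alternatives, 39 lost a call, 19 gained one and 138 had the other sign, 136 of them differences that had not passed and did not pass after. The 2 called differences that reversed did so at 5% mitochondrial UMIs: Ldha in activated against resting B cell-like cells (-0.037) and Pfkl in plasma cell-like against resting B cell-like cells (0.010). For stress, leaving out a library gave 0 to 3 of the 10 genes called in all kept cells and 0 to 1 in monocyte-like, macrophage-like and cDC2-like cells. Without the low-count filter 1 gene was called in monocyte-like (Hk2) and 1 in macrophage-like cells (Eno1). The labels do not say whether replicate numbers pair the libraries. Over genes, the difference of the 2 controls showed little correlation with that of the 2 stress libraries (r from -0.04 to 0.03). Those values cannot settle whether the libraries were paired. A replicate block called 1 gene in activated B cell-like cells (Pgk1, 0.83, adjusted p = 0.022) and 0 in the other 9 stress fits. Monocyte-like against macrophage-like cells had 1 call with clusters and 1 with no library block. Activated against resting B cell-like cells had 0 under DESeq2, no filter, 5% mitochondrial UMIs and no library block, and 0 to 1 when a library was left out. With plain totals the median summed level was 1812 CPM in germinal centre B, 2086 in dividing B, 473 in plasma, 1825 in effector T and 1389 in NK cell or ILC1-like cells. At 5% mitochondrial UMIs it was 1332 in dividing B and 2136 in ILC2-like cells. Genes with both stress libraries above both controls numbered 6 in all kept, 8 in plasma and 0 in naive T cell-like cells with 1 TMM over all class sums (21.4, 32.9 and 15.4% of all genes), and 5 in plasma, 2 in naive T and 5 in cDC2-like cells with plain totals (31.6, 19.7 and 25.1%). The causes were not tested. Cluster classes for activated and dividing B cells, and 5% mitochondrial UMIs for germinal centre and dividing B cell fits, were not run where cells were too few. Leaving out a library leaves an arm with 1, assumed to vary like the other group. With 2 libraries a group, small differences were not detectable.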
